A study of Danio rerio with 9 samples.

Results

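Whole zebrafish embryos that had received an eif5a1/2 morpholino were compared with embryos that had received a dhps morpholino. The comparison sets loss of the translation factor eIF5A beside loss of the enzyme that modifies it. It uses 6 of the 9 libraries of the series, 3 with each of these morpholinos, and covers every gene of the deposited table, 24614 in all. The other 3 libraries are from embryos given a control morpholino. Polyadenylated RNA was extracted from whole bodies, per the series design 24 hours after fertilization and per the labels' protocols 24 hours after the morpholino. The labels name the groups "Control morpholino", "dhps morpholino" and "eif5a1/2 morpholino" and give no strain, dose or number of embryos. All 3 groups carried a morpholino, an antisense oligomer that keeps its target RNA from being translated or spliced. The sources used here do not say which, and no second morpholino for either gene is among these libraries. Morpholinos are known in zebrafish to induce p53 target genes in some cases without regard to the gene they were made for.

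eIF5A is a small protein that binds ribosomes and helps them through stretches of sequence, proline runs among them, at which peptide bonds form slowly, and it also takes part in termination. It is the known carrier of hypusine, an amino acid made in place on a lysine of eIF5A. Deoxyhypusine synthase, the product of dhps, moves a butylamine group from the polyamine spermidine to that lysine, and deoxyhypusine hydroxylase, the product of dohh, completes the change. Without DHPS the factor can still be made but stays unmodified, whereas a block of eif5a and eif5a2 removes the protein itself. By design, embryos meant to keep unmodified eIF5A are therefore set beside embryos meant to make less of the factor, as far as each morpholino acts on its named target. Neither eIF5A protein nor hypusine was measured in these libraries, so how far each block went is not known.

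The 6 libraries held between 15952645 and 17248746 counts. Levels are given as CPM, counts scaled to a common library size. In a principal component analysis of log2 CPM over all 9 libraries, on the first component, with 62.6% of the variance, eif5a1/2 library 2 scored 59.18. The dhps libraries scored 27.3 to 58.7, and eif5a1/2 libraries 1 and 3 scored -55.6 and -21.4. Control libraries 1, 2 and 3 scored -54.6, 24.4 and -72.6, so this component split the control group as well. For each library, log2 CPM was taken as the deviation from the mean of all 9 libraries. Its slope on log2 relative transcript length is above 0 where longer transcripts hold more of a library than in that mean. The slope was 0.136 in eif5a1/2 library 2 and 0.136, 0.037 and 0.040 in dhps libraries 1, 2 and 3. It was -0.094, 0.063 and -0.117 in control libraries 1, 2 and 3. In eif5a1/2 libraries 1 and 3 it was -0.127 and -0.075, and the part of this trend in single genes was not tested. The knockdowns were separated by the second component, with 9.56% of the variance, on which the eif5a1/2 libraries scored 18.1 to 33.3 and the dhps libraries -20.1 to -15.7. Nothing in the labels says that the replicates came from separate clutches, so the p-values measure the spread between these samples, which may be technical.

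**Figure D1:**
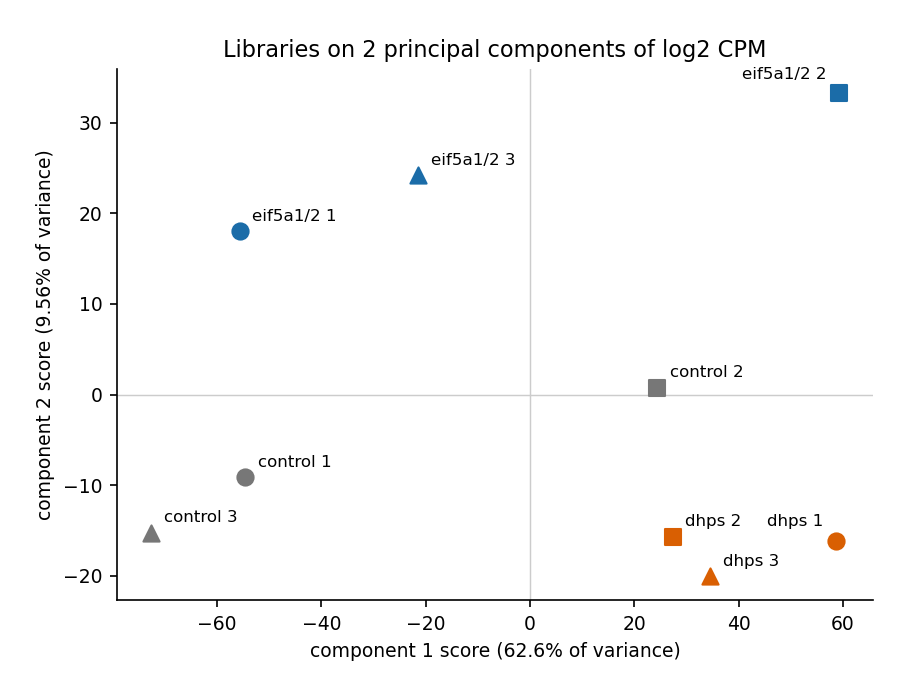
Scores of the 9 libraries on the first (horizontal, 62.6% of the variance) and second (vertical, 9.56%) principal component of log2 CPM, without units. Grey, orange and blue stand for control, dhps and eif5a1/2, and circle, square and triangle for replicates 1, 2 and 3; eif5a1/2 library 2 lies with the dhps libraries along the horizontal axis at 59.18, and the blue points lie above all others along the vertical axis.

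Of 17031 genes tested, 311 (1.83%) differed between the knockdowns at an adjusted p under 0.05, with edgeR's quasi-likelihood test. 166 of them (0.975%) were higher in eif5a1/2 embryos and 145 (0.851%) were higher in dhps embryos. The change was at least 2-fold for 158 genes. In the authors' deposited table of this comparison 478 of 23950 genes had a q-value under 0.05, and 294 of the 311 genes were among them. When the libraries were scaled by their totals alone, 138 genes passed and 41.3% of them were higher in eif5a1/2 embryos, against 53.4% with the main scaling, with the median of all genes at -0.19 on the log2 scale. In the 5 libraries whose length slope was positive, which leave eif5a1/2 library 2 alone in its group and assumed to vary like the others, 466 genes passed, 39.9% of them higher in eif5a1/2 embryos. The count rested on single libraries, from 73 genes without dhps library 1 or 3 to 864 genes without eif5a1/2 library 2. 63 genes passed in all 9 fits that left out 1 library, 41 of them higher in dhps embryos and 22 higher in eif5a1/2 embryos.

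The control libraries, which enter the same fit, show where each knockdown lay. The mean CPM of control lay between the means of the knockdowns for 116 of the 166 genes higher in eif5a1/2 embryos and for 114 of the 145 genes higher in dhps embryos, against 27.9% of all genes tested. For 175 of the 311 genes the CPM of the dhps libraries lay outside the control range while the eif5a1/2 libraries overlapped it, a pattern of 25.0% of all genes tested. The reverse pattern, with eif5a1/2 outside and dhps overlapping, was seen for 37 of the 311 genes and for 6.54% of all genes. For 78 genes the knockdowns lay outside the control range on opposite sides (0.898% of all genes). A call needs a gap between the knockdowns, so these shares describe the called genes and were not tested.

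**Figure D2:**
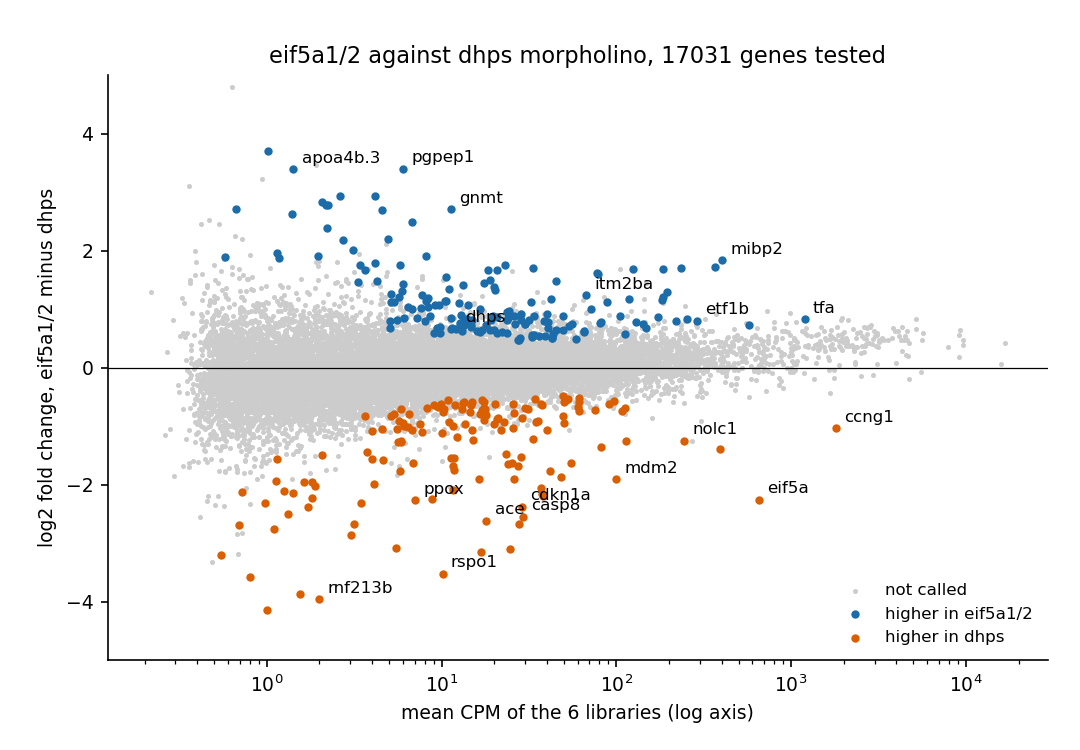
Log2 fold change of eif5a1/2 against dhps (vertical) by mean CPM of the 6 libraries on a log axis (horizontal), 1 point per gene tested. Blue points are the 166 genes higher in eif5a1/2 embryos and orange points the 145 genes higher in dhps embryos; 5 genes beyond a log2 change of 5 in either direction, 1 of them called, lie outside the plot.

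The targeted transcripts were measured first. The level of eif5a (gene ID 406464) was 238, 213 and 229 CPM in eif5a1/2 libraries 1, 2 and 3, and 1055, 1084 and 1116 CPM in dhps libraries 1, 2 and 3. All eif5a1/2 libraries were far below all dhps libraries, at a log2 difference of -2.26 ± 0.15 (SE, adjusted p = 0.00011), a call made in 9 of 9 fits that left out 1 library. For eif5a the dhps libraries also lay outside the control range, on the same side of it as the eif5a1/2 libraries. Its paralog eif5a2 (406546) held 147, 283 and 209 CPM in eif5a1/2 libraries and 415, 369 and 417 CPM in dhps libraries. These groups did not overlap, yet the difference of -0.91 ± 0.26 did not pass the test (adjusted p = 0.129), and reads of these related genes can be split uncertainly. The dhps transcript (406329) was at 10.3, 9.60 and 8.27 CPM in dhps libraries and 15.16, 15.5 and 14.1 CPM in eif5a1/2 libraries. It was higher in all eif5a1/2 libraries, by 0.67 ± 0.12 (adjusted p = 0.033), and passed in 3 of 9 fits that left out 1 library, with an adjusted p of up to 0.162. For this transcript the dhps libraries lay outside the control range, which the eif5a1/2 libraries overlapped. The level of dohh ranged from 53.3 to 99.6 CPM in eif5a1/2 libraries and 65.3 to 82.0 CPM in dhps libraries, with a log2 difference of 0.02 ± 0.23 (adjusted p = 0.973). Transcript levels need not follow the action of a morpholino, and protein was not measured.

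Around this pathway, 3 of the 24 tested genes of hypusination and polyamine metabolism passed (12.5% against 1.83% of all genes), eif5a, dhps and sat2b. Of these, eif5a and dhps are morpholino targets. The median log2 difference was -0.02 over the list against 0.000282 over all genes. sat2b, of the spermidine/spermine acetyltransferase family, held 13.3, 10.7 and 13.1 CPM in eif5a1/2 and 5.16, 5.50 and 6.96 CPM in dhps libraries. It was higher in every eif5a1/2 library, by 1.07 ± 0.17 (adjusted p = 0.0142), and passed in 5 of 9 fits without 1 library, with an adjusted p of up to 0.0927. odc1, which encodes ornithine decarboxylase, the enzyme that starts polyamine synthesis, was at -0.50 ± 0.12 (adjusted p = 0.0748) and did not pass.

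A further list held genes that make and use the methyl donor S-adenosylmethionine. gnmt, the glycine N-methyltransferase that spends this donor to make sarcosine, held 19.6, 18.6 and 20.8 CPM in eif5a1/2 libraries, 3.28, 2.401 and 3.35 CPM in dhps libraries and 3.86, 3.98 and 3.18 CPM in control libraries. The eif5a1/2 libraries stood far above both other groups, which overlapped each other. Its log2 difference was 2.71 ± 0.16 (adjusted p = 0.00011, 6.53-fold) and it passed in 9 of 9 fits without 1 library. sardh and dmgdh, the dehydrogenases of sarcosine and dimethylglycine, were also higher in eif5a1/2 embryos, by 0.70 ± 0.12 (adjusted p = 0.02) and 0.67 ± 0.12 (adjusted p = 0.0325). mthfd1b, of the folate cycle, was lower in them, at -0.69 ± 0.13 (adjusted p = 0.0384). These calls were less firm than that of gnmt, passing in 6 of 9, 2 of 9 and 2 of 9 fits without 1 library, with adjusted p of up to 0.123, 0.17 and 0.193. In the list of methionine, folate and methyl group metabolism, 4 of 28 tested genes passed (14.3% against 1.83% of all genes), at a median of 0.15. mat2al, of the methionine adenosyltransferase family that makes the donor and not a member of that list, went the other way. It held 59.06, 56.3 and 64.3 CPM in dhps libraries against 14.5, 12.2 and 16.7 CPM in eif5a1/2 and 18.4, 18.98 and 20.9 CPM in control libraries, a log2 difference of -2.05 ± 0.13 (adjusted p = 0.00011).

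Of the 50 tested genes of the p53 pathway, 12 passed, a share of 24.0% against 1.83% of all genes, with 10 higher in dhps embryos and 2 higher in eif5a1/2 embryos. The median of the list was -0.09, so the difference lay in part of its members, and the log2 differences of the 38 others ranged from -2.04 to 0.80. The CPM of the dhps libraries lay above all eif5a1/2 libraries for 36.0% of the list and for 10.1% of all genes.

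The regulators of p53 split in direction. mdm2, the ubiquitin ligase that degrades p53 and is itself a p53 target, held 169, 143 and 162 CPM in dhps and 38.4, 49.3 and 38.5 CPM in eif5a1/2 libraries. All dhps libraries were above all eif5a1/2 libraries, at a log2 difference of -1.91 ± 0.14 (adjusted p = 0.00015). mdm4, a relative of mdm2 that inhibits p53, held 16.1, 19.8 and 15.3 CPM in dhps and 25.7, 34.3 and 32.1 CPM in eif5a1/2 libraries, the opposite order. Its difference of 0.85 ± 0.15 (adjusted p = 0.0273) passed in 5 of 9 fits that left out 1 library, with an adjusted p of up to 0.155.

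Among the targets that stop the cell cycle, cdkn1a, which encodes the kinase inhibitor p21, held 48.4, 43.8 and 52.98 CPM in dhps and 9.67, 8.30 and 9.98 CPM in eif5a1/2 libraries, against 17.7, 18.9 and 13.0 CPM in control libraries. It was 5.20-fold higher in dhps embryos, at -2.38 ± 0.16 (adjusted p = 0.00011). gadd45aa, of the DNA damage inducible Gadd45 family, was at 18.2 ± 2.97 CPM in dhps and 5.41 ± 0.275 CPM in eif5a1/2 libraries (mean ± SD), a difference of -1.75 ± 0.17 (adjusted p = 0.000726). The cyclin G genes went in opposite directions. ccng1, a known p53 target, was lower in eif5a1/2 embryos at -1.04 ± 0.16 (adjusted p = 0.0142), and ccng2 was higher at 0.83 ± 0.17 (adjusted p = 0.0441). These passed in 5 of 9 and 3 of 9 fits without 1 library, with adjusted p of up to 0.0927 and 0.193.

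Among the targets that act in cell death, casp8, the initiator caspase of death receptors, held 42.9, 51.4 and 55.5 CPM in dhps and 7.27, 9.70 and 8.47 CPM in eif5a1/2 libraries, with control libraries at 17.1, 23.1 and 20.0 CPM. The 3 groups did not overlap, and the difference of -2.55 ± 0.17 (adjusted p = 0.00011, 5.86-fold) was the largest in this list. Against control, casp8 passed on both sides, higher in dhps embryos by 1.31 ± 0.16 (adjusted p = 0.00465) and lower in eif5a1/2 embryos at -1.24 ± 0.16 (adjusted p = 0.0291). phlda3, a p53 target that inhibits Akt, had the same order, with 59.8, 58.1 and 65.7 CPM in dhps, 15.8, 10.8 and 14.4 CPM in eif5a1/2 and 28.5, 27.6 and 29.4 CPM in control libraries. Its difference was -2.17 ± 0.14 (adjusted p = 0.00011), and it also passed against control in dhps (adjusted p = 0.00601) and, in the other direction, in eif5a1/2 embryos (adjusted p = 0.0291). bbc3, which encodes the BH3-only protein Puma, was at 18.7 ± 1.69 CPM in dhps and 4.39 ± 0.350 CPM in eif5a1/2 libraries, a difference of -2.09 ± 0.14 (adjusted p = 0.00011). baxa, a copy of the pore former Bax, differed by -0.83 ± 0.12 (adjusted p = 0.00968). It passed in 6 of 9 fits without 1 library, with an adjusted p of up to 0.0624. Another member of the p53 list, not placed here among the genes of cell death, was sesn3, a sestrin. It was at 54.3 ± 1.91 CPM in dhps and 25.9 ± 1.88 CPM in eif5a1/2 libraries, with control at 24.4 ± 1.49 CPM, so that for this gene eif5a1/2 and control overlapped. The log2 difference of sesn3 was -1.07 ± 0.10 (adjusted p = 0.000726).

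mdm2, cdkn1a, gadd45aa, casp8, phlda3, bbc3 and sesn3 passed in all 9 fits that left out 1 library. The fit of only the 5 libraries with a positive length slope keeps eif5a1/2 library 2 as the lone library of its group. In it the median of the p53 list was 0.03, against -0.09 in the main fit. A median over all tested members does not describe the called genes. Among the genes that the rule names, no called gene changed direction in this fit. The comparisons with control share libraries with the main comparison and are given side by side for that reason. In whole embryos a lower level cannot be told apart from fewer cells that express the gene.

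**Figure D3:**
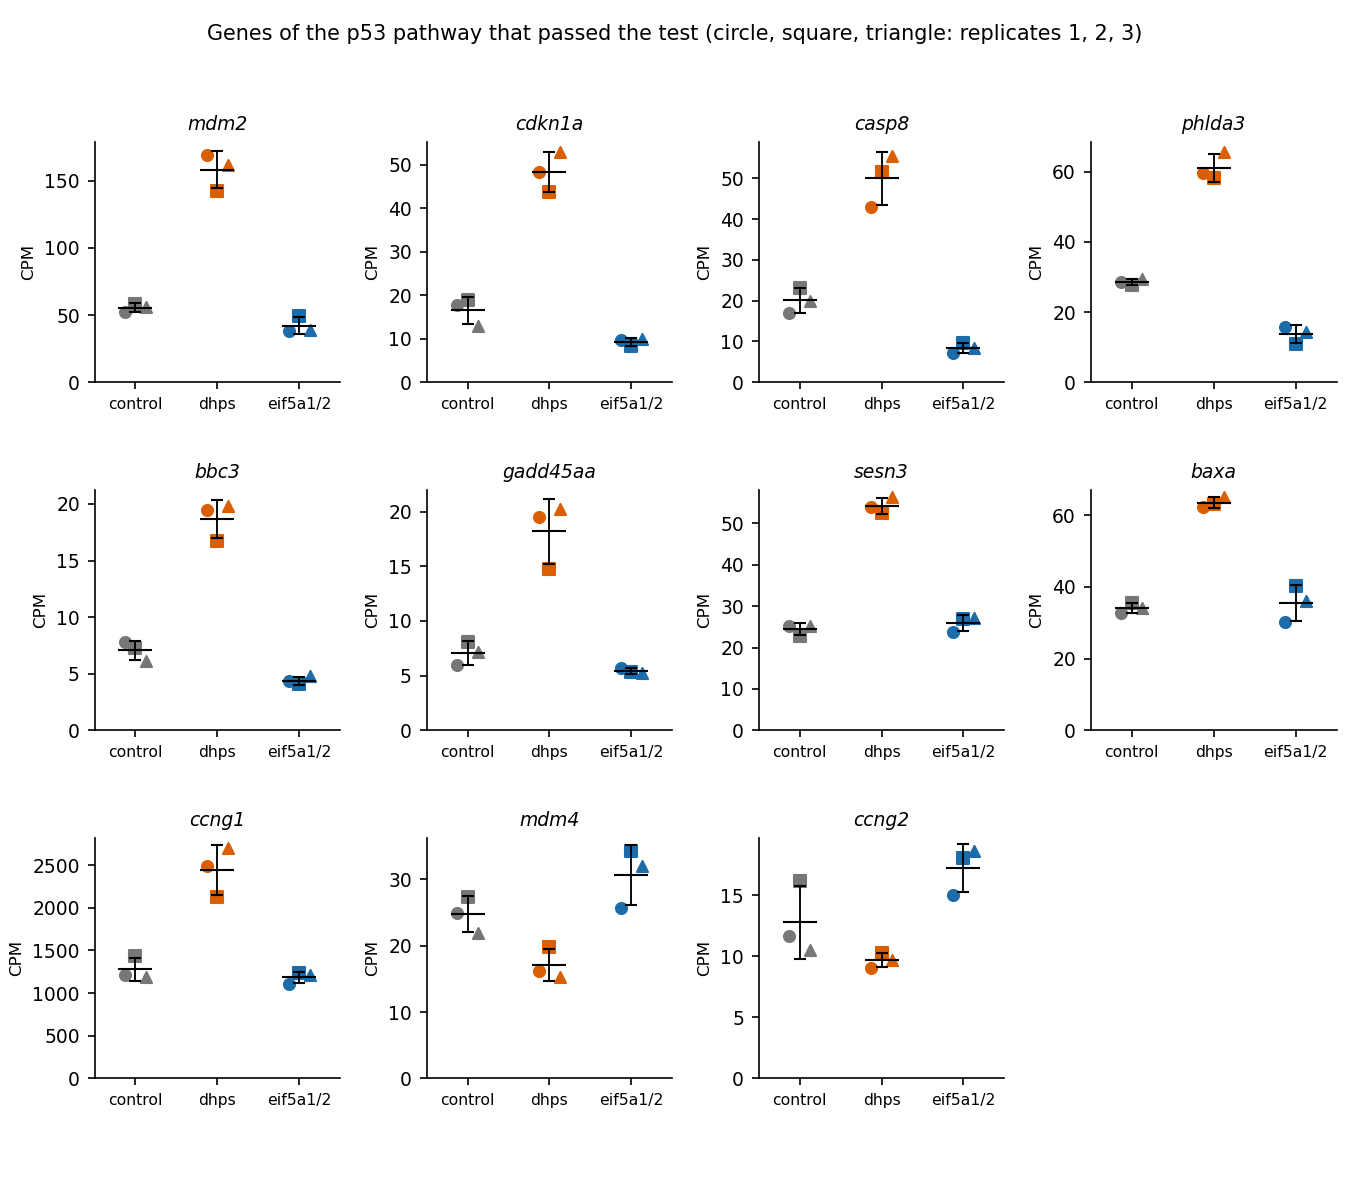
CPM of genes of the p53 list that passed the test, 1 panel per gene, in each of the 9 libraries, with the mean (long line) and SD (bar) per group of 3. Vertical axes start at 0 and differ between genes; for mdm2, cdkn1a, casp8, phlda3, bbc3 and gadd45aa every dhps library lies above, and every eif5a1/2 library below, the control libraries.

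Of 13 tested inhibitors of the cell cycle, 4 passed (30.8% against 1.83% of all genes), all higher in dhps embryos. They were cdkn1a, given above as a p53 target, cdkn2a/b, rbl2 and cdkn1ba. 8 of the 13 genes had positive values, at a list median of 0.06. cdkn2a/b, which encodes an inhibitor of cyclin D kinases related to p15 and p16, held 3.23, 2.03 and 3.46 CPM in dhps libraries and 0, 0.281 and 0.251 CPM in eif5a1/2 libraries. It was also low in control libraries (0.0715 to 0.466 CPM), at a difference of -3.87 ± 0.67 (adjusted p = 0.024). rbl2, a pocket protein gene of the retinoblastoma family, held 9.38, 2.93 and 3.77 CPM in dhps and 0.387, 1.22 and 0.502 CPM in eif5a1/2 libraries, with dhps library 1 well above the other two. Its difference of -2.86 ± 0.58 (adjusted p = 0.045) and that of cdkn1ba, which encodes a p27 inhibitor, at -0.70 ± 0.13 (adjusted p = 0.0298), each passed in 2 of 9 fits without 1 library. Their adjusted p reached 0.208 and 0.135, and that of cdkn2a/b, which passed in 5 of 9, reached 0.125.

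Genes that carry out the cell cycle passed at 1.72% for DNA replication and 1.96% for mitosis, near the 1.83% of all genes tested. In the DNA replication list, 1 of 58 tested genes passed, cdk2, the S phase kinase, at 0.64 ± 0.13 (adjusted p = 0.0438). It passed in 2 of 9 fits without 1 library, with an adjusted p of up to 0.206. The list median was 0.21 and 51 of 58 genes had positive values. In the mitosis list, 1 of 51 passed, ect2, an exchange factor that acts in cytokinesis. ect2 held 87.8, 75.8 and 87.5 CPM in dhps and 21.7, 32.3 and 27.1 CPM in eif5a1/2 libraries, a difference of -1.63 ± 0.15 (adjusted p = 0.000722) against the run of its list, whose median was 0.24 with 46 of 51 genes positive. All eif5a1/2 libraries lay above all dhps libraries for 24.1% of the DNA replication list and 25.5% of the mitosis list, against 10.8% of all genes. DESeq2 called 5 and 3 of their genes as higher in eif5a1/2 embryos, and 462 of all 17031 genes tested. Scaling by library totals moved the medians of both lists to 0.01 and 0.03, while the median of all genes moved to -0.19. Histone genes had a median of 0.41, which was -0.26 in the libraries with a positive length slope, so the direction of that list depended on the libraries used.

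Genes for yolk lipoproteins and plasma proteins had the largest share of genes called toward eif5a1/2 among the 44 lists. In the embryo these proteins come from the yolk syncytial layer and, as it develops, from the liver, and their source was not measured here. Of 43 tested genes, 8 passed (18.6% against 1.83% of all genes), all higher in eif5a1/2 embryos. Positive values were held by 40 of the 43, with a median of 0.70 on the log2 scale. All eif5a1/2 libraries lay above all dhps libraries for 58.1% of the list, against 10.8% of all genes. The median held its sign in the other fits, at 0.42 with library totals, 0.51 with the length slope as a covariate, 0.28 in the libraries with a positive length slope and 0.85 without eif5a1/2 library 2. Beside control, the list median was -0.49 in dhps and 0.16 in eif5a1/2 embryos.

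Transport proteins came first by level. tfa, which encodes the iron carrier transferrin, held 1771, 1293 and 1524 CPM in eif5a1/2 and 766, 881 and 928 CPM in dhps libraries. Control libraries lay between, at 1174, 1205 and 1206 CPM, and the difference was 0.83 ± 0.16 (adjusted p = 0.0384). rbp4, the retinol carrier, was at 276 ± 47.2 CPM in eif5a1/2 and 113 ± 12.6 CPM in dhps libraries, a difference of 1.29 ± 0.24 (adjusted p = 0.033). apoa4a, an apolipoprotein A-IV gene, held 162, 77.6 and 112 CPM in eif5a1/2 and 32.6, 42.1 and 40.1 CPM in dhps libraries, with eif5a1/2 library 2 the lowest of its group. Its difference was 1.61 ± 0.27 (adjusted p = 0.02). apoa4b.3, a gene of the same family, held 2.63, 2.34 and 2.82 CPM in eif5a1/2 libraries and 0.248, 0.267 and 0.209 CPM in dhps libraries. At 3.39 ± 0.30 (adjusted p = 0.000574), it was 10.5-fold higher, although at low counts and in a tandem family whose reads may be shared.

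Protease inhibitors and clotting factors followed the same order. serpina1l, of the antitrypsin family, held 327, 189 and 239 CPM in eif5a1/2 and 97.8, 119.6 and 120.2 CPM in dhps libraries, at 1.16 ± 0.20 (adjusted p = 0.0257). a2ml, of the alpha-2-macroglobulin family, held 268, 204 and 199 CPM in eif5a1/2 libraries against 121, 138 and 112 CPM in dhps and 144, 120.1 and 162 CPM in control libraries, so that dhps and control overlapped. Its difference was 0.85 ± 0.17 (adjusted p = 0.0384). f7, the coagulation factor VII gene, and prozb, which encodes a protein Z, were low in dhps libraries (0.447 to 0.587 and 0.480 to 0.695 CPM) and higher in all eif5a1/2 libraries (2.81 to 4.25 and 3.56 to 5.59 CPM). They differed by 2.83 ± 0.31 (adjusted p = 0.00205) and 2.94 ± 0.29 (adjusted p = 0.001). apoa4b.3, f7 and prozb passed in all 9 fits that left out 1 library. tfa, a2ml, rbp4, serpina1l and apoa4a passed in 2, 2, 3, 3 and 4 of them, with adjusted p of up to 0.191, 0.206, 0.171, 0.142 and 0.125.

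**Figure D4:**
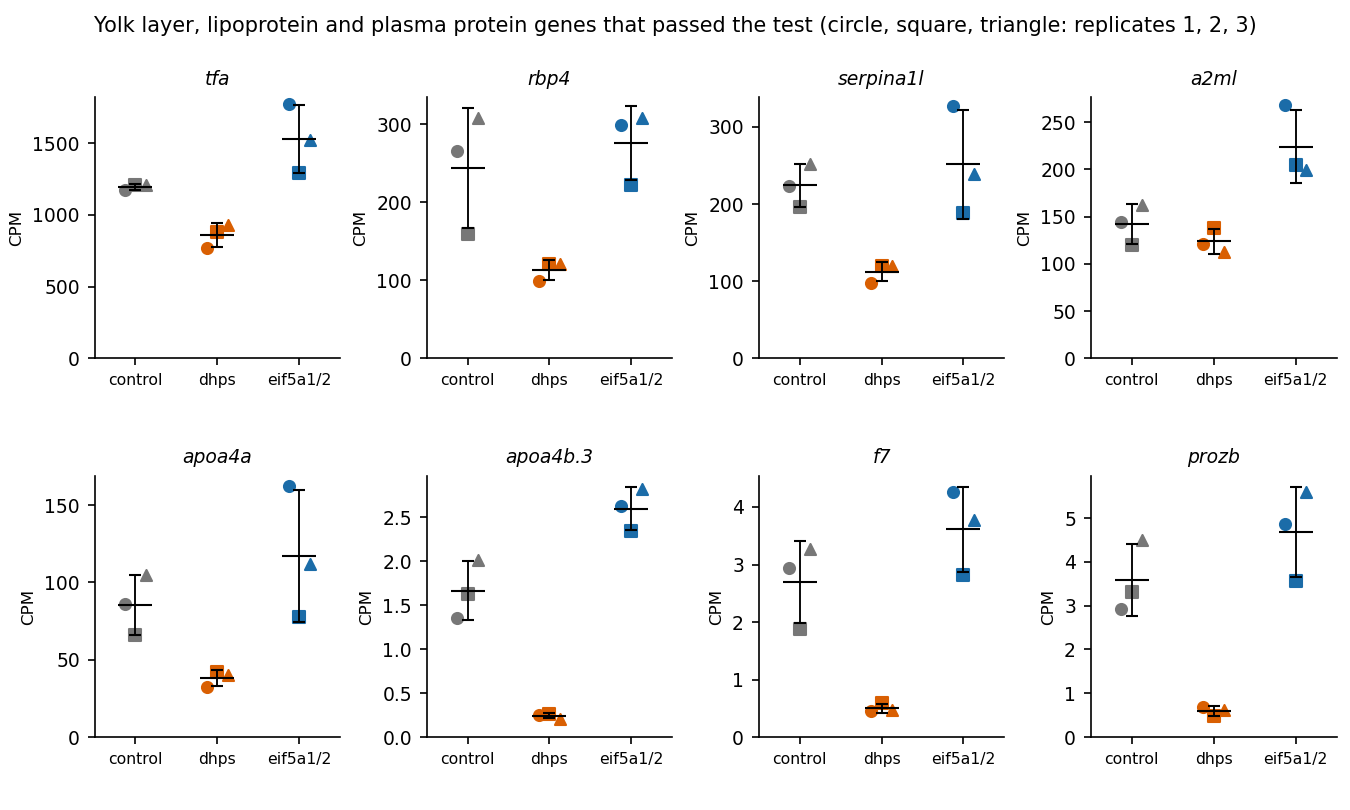
CPM of the 8 genes of yolk lipoproteins and plasma proteins that passed the test, in each of the 9 libraries, with the mean (long line) and SD (bar) per group of 3. Vertical axes start at 0; in all panels the 3 eif5a1/2 libraries lie above the 3 dhps libraries, and among the eif5a1/2 libraries number 2 (square) is the lowest in all panels but that of a2ml.

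Among the largest named values toward eif5a1/2 were those of soat2 and cd36. soat2, which esterifies cholesterol for lipoprotein assembly, held 9.82, 6.66 and 5.65 CPM in eif5a1/2 and 1.24, 0.800 and 0.838 CPM in dhps libraries. It was 7.59-fold higher, at 2.92 ± 0.33 (adjusted p = 0.00218). cd36, a scavenger receptor that takes up fatty acids, held 4.56, 3.38 and 3.52 CPM in eif5a1/2, 0.596, 0.587 and 0.471 CPM in dhps and 1.29, 1.47 and 1.32 CPM in control libraries. The groups did not overlap, and the difference of 2.77 ± 0.26 (adjusted p = 0.000722) came with log2 values of 1.48 in eif5a1/2 and -1.29 in dhps embryos against control, neither of which passed. The first passed with the replicate number as a block in the control and eif5a1/2 libraries alone (adjusted p = 0.015). mvda, of the mevalonate pathway to cholesterol, was at 1.55 ± 0.22 (adjusted p = 0.00973). In the list of cholesterol and fatty acid synthesis, soat2 and mvda were the 2 of 34 tested genes that passed (5.88% against 1.83% of all genes). The list median was -0.08.

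Other large values toward eif5a1/2 belonged to pgpep1, ctbs, nms and cnfn. pgpep1, a peptidase that removes pyroglutamate from peptide ends, held 19.4, 5.34 and 8.35 CPM in eif5a1/2 libraries, 1.09, 0.854 and 1.15 CPM in dhps libraries and 1.07, 1.101 and 1.17 CPM in control libraries. All eif5a1/2 libraries were well above the rest but spread widely, and the difference was 3.40 ± 0.45 (adjusted p = 0.00663). It passed in 7 of 9 fits without 1 library, with an adjusted p of up to 0.0536. ctbs, a lysosomal chitobiase, was the largest of the named genes at 3.69 ± 0.54 (adjusted p = 0.011), at low levels of 1.26 to 2.63 CPM in eif5a1/2 and 0.0496 to 0.209 CPM in dhps libraries. nms, which encodes the neuropeptide neuromedin S, and cnfn were at 2.78 ± 0.58 (adjusted p = 0.0498) and 2.63 ± 0.49 (adjusted p = 0.0331). They passed in 1 of 9 and 2 of 9 fits without 1 library, with adjusted p of up to 0.227 and 0.167, and ctbs in 6 of 9, up to 0.0622.

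Toward dhps, the largest value among named genes with a mean CPM of at least 1 belonged to rnf213b. Its human relative RNF213 is an E3 ubiquitin ligase. rnf213b held 3.52, 4.05 and 3.66 CPM in dhps libraries and 0.155, 0.328 and 0.188 CPM in eif5a1/2 libraries, a difference of -3.96 ± 0.33 (adjusted p = 0.000335). Control libraries held 0.358, 0.367 and 0.466 CPM, so the dhps libraries stood apart. rspo1, a secreted enhancer of Wnt signalling, differed on both sides of control, with 17.4, 15.3 and 23.2 CPM in dhps, 2.01, 1.45 and 1.44 CPM in eif5a1/2 and 5.01, 6.97 and 7.07 CPM in control libraries. Its difference was -3.52 ± 0.24 (adjusted p = 0.00011, 11.5-fold), and it passed against control as higher in dhps (adjusted p = 0.00867) and lower in eif5a1/2 embryos (adjusted p = 0.0221). It was the 1 gene of 39 tested in the Wnt list to pass (2.56% against 1.83% of all genes), at a list median of -0.04. lnx1, an E3 ubiquitin ligase that binds Numb, was at -2.68 ± 0.22 (adjusted p = 0.000332), with 43.9 to 50.6 CPM in dhps and 5.18 to 10.3 CPM in eif5a1/2 libraries.

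Other named genes toward dhps were those of enzymes and receptors, and rpz5. ace, the angiotensin converting enzyme, held 31.2, 28.9 and 32.7 CPM in dhps libraries against 5.72, 4.78 and 4.65 CPM in eif5a1/2 and 6.29, 6.61 and 8.23 CPM in control libraries. Its difference was -2.62 ± 0.14 (adjusted p = 0.00011), with 2.14 ± 0.14 in dhps embryos against control (adjusted p = 0.000465) and -0.48 ± 0.14 in eif5a1/2 embryos, which did not pass (adjusted p = 0.331). rpz5, a gene of the rapunzel family, was at -1.77 ± 0.12 (adjusted p = 0.00011) with a similar order. ltb4r, a leukotriene B4 receptor, cd44a, a hyaluronan receptor, and amy2a, a pancreatic amylase, were at -3.08 ± 0.59, -2.50 ± 0.42 and -2.68 ± 0.49 (adjusted p = 0.0364, 0.02 and 0.0312). These last calls were made in 4 of 9, 4 of 9 and 3 of 9 fits without 1 library, with adjusted p of up to 0.167, 0.123 and 0.167, whereas rnf213b, rspo1, lnx1, ace and rpz5 passed in all 9. amy2a was the 1 of 6 tested genes of the exocrine pancreas list to pass (16.7% against 1.83% of all genes). Of these 6 genes 4 had positive values, at a list median of 0.41.

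For ppox, etf1b and itm2ba, both knockdowns lay outside the control range on the same side, eif5a1/2 the further. ppox, which encodes protoporphyrinogen oxidase of heme synthesis, held 2.55, 2.77 and 1.95 CPM in eif5a1/2 libraries against 12.2, 13.0 and 10.1 CPM in dhps and 17.7, 15.3 and 16.3 CPM in control libraries. Every eif5a1/2 library was below all others, at -2.27 ± 0.17 against dhps (adjusted p = 0.000194) and -2.75 ± 0.17 against control (adjusted p = 0.000188). It was the 1 gene of 39 tested in the erythrocyte and heme list to pass (2.56% against 1.83% of all genes), and the list median was 0.16. etf1b, which encodes the release factor eRF1 that ends translation at stop codons, held 405, 326 and 368 CPM in eif5a1/2, 187, 235 and 210.1 CPM in dhps and 168, 132 and 164 CPM in control libraries. Its difference of 0.80 ± 0.15 (adjusted p = 0.0336) passed in 2 of 9 fits without 1 library, with an adjusted p of up to 0.178. itm2ba, which encodes a membrane protein of the Itm2b family, held 97.2, 93.4 and 91.5 CPM in eif5a1/2, 35.4, 43.4 and 40.4 CPM in dhps and 25.3, 28.4 and 27.4 CPM in control libraries. Both knockdowns were above control for itm2ba, and eif5a1/2 was above dhps by 1.24 ± 0.11 (adjusted p = 0.000549).

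Among genes of the translation machinery, 3.53% of translation factors and 1.18% of cytoplasmic ribosomal proteins passed, against 1.83% of all genes tested. For ribosome biogenesis the share was 0.962%. Of 85 tested genes for translation factors 3 passed, eif5a and eef2l2, a relative of elongation factor 2, toward dhps and etf1b toward eif5a1/2, with a list median of 0.09. eef2l2 was at -0.67 ± 0.14 (adjusted p = 0.0466) and passed in 1 of 9 fits without 1 library, with an adjusted p of up to 0.228. Of 85 genes for cytoplasmic ribosomal proteins 1 passed, rpl22l1, at 1.69 ± 0.24 (adjusted p = 0.0105), 6 of 9 fits without 1 library and an adjusted p of up to 0.081 in them. 83 of the 85 had positive values, with a median of 0.48. That median was 0.20 with library totals, -0.02 with the length slope as a covariate, -0.33 in the libraries with a positive length slope and 0.76 without eif5a1/2 library 2. The median log2 deviation of these genes from their mean over libraries was 0.53, -0.69 and 0.15 in eif5a1/2 libraries 1, 2 and 3, and -0.52, -0.29 and -0.39 in the dhps libraries, so the eif5a1/2 libraries lay on both sides of the dhps libraries. Genes of nuclear oxidative phosphorylation followed the same course, with a median of 0.32, and of -0.36 in the libraries with a positive length slope. Of 90 tested, 0 passed. At an unadjusted p under 0.05 there were 7, all toward eif5a1/2, against 14.6% of all genes, with 8.38% toward eif5a1/2. With DESeq2, 3 of these 90 passed as higher in eif5a1/2 embryos, against 462 of all 17031 genes tested. In the ribosome biogenesis list, 1 of 104 genes passed. It was nolc1, a nucleolar phosphoprotein, with 322, 360.1 and 352 CPM in dhps and 131, 151 and 153 CPM in eif5a1/2 libraries, a difference of -1.25 ± 0.12 (adjusted p = 0.000722).

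**Figure D5:**
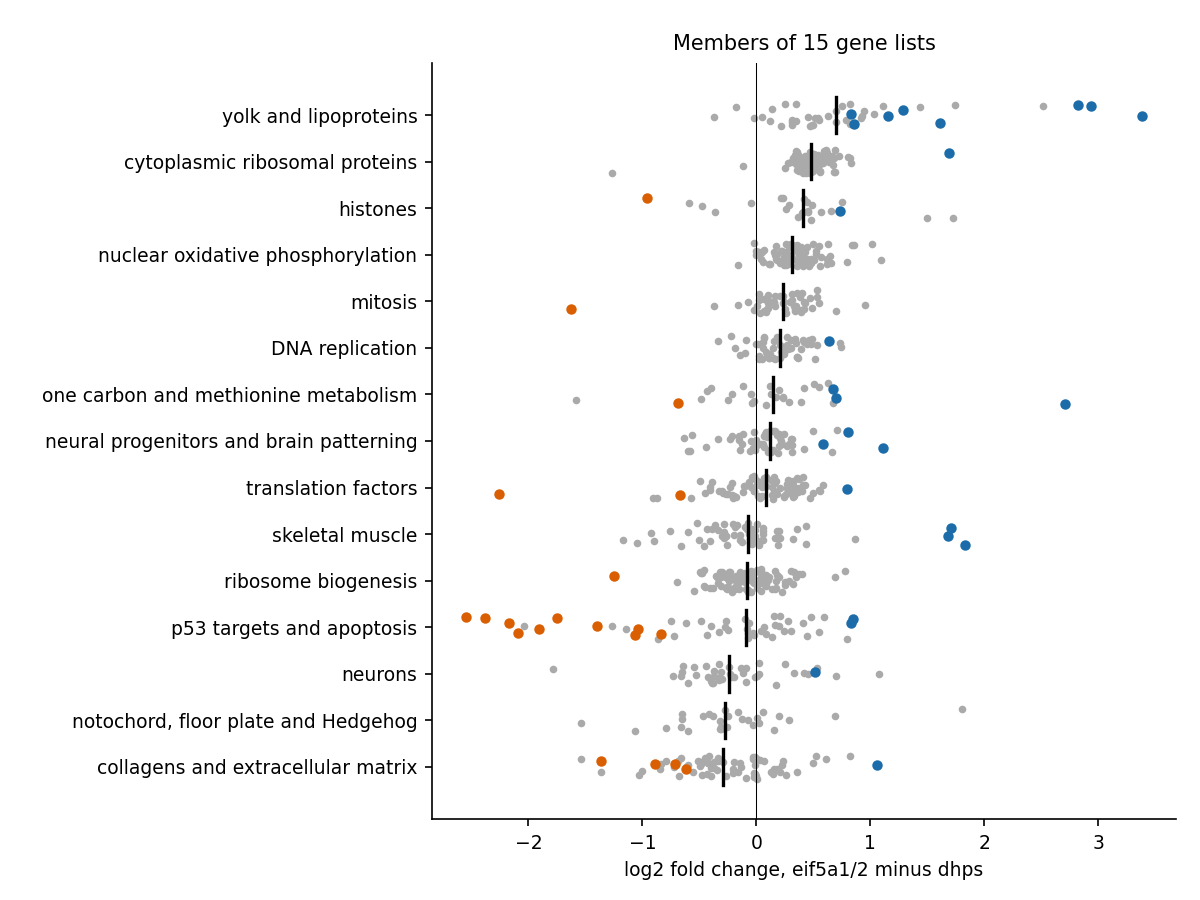
Log2 fold change of eif5a1/2 against dhps (horizontal) for the tested members of 15 gene lists (rows), with the median of each list as a black bar. Blue and orange points passed the test as higher in eif5a1/2 and in dhps embryos; the median runs from 0.70 for yolk and lipoproteins to -0.29 for collagens and extracellular matrix, and the orange points gather in the p53 list.

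In muscle, 3 of 64 tested genes passed (4.69% against 1.83% of all genes), all higher in eif5a1/2 embryos. mibp2, a gene of the muscle list, held 729, 462 and 695 CPM in eif5a1/2, 164, 185 and 180.4 CPM in dhps and 1182, 836 and 1164 CPM in control libraries. Every dhps library was far below every other library, and eif5a1/2 lay between dhps and control, at 1.83 ± 0.21 against dhps (adjusted p = 0.0026). tpm2, a tropomyosin gene, held 757, 338 and 581 CPM in eif5a1/2 and 134, 194 and 184 CPM in dhps libraries, at 1.71 ± 0.28 (adjusted p = 0.0183). eno3, the muscle enolase, was at 1.69 ± 0.29 (adjusted p = 0.0242). mibp2 passed in all 9 fits without 1 library, and tpm2 and eno3 in 5 of 9 and 3 of 9, with adjusted p of up to 0.112 and 0.139. The list as a whole did not share this direction, with a median of -0.07 and 21 of 64 genes positive. In the libraries with a positive length slope its median was -0.40.

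In the nervous system, 3 of 59 tested genes of neural progenitors and brain patterning passed (5.08% against 1.83% of all genes). All 3 were higher in eif5a1/2 embryos, at a list median of 0.12. ascl1b, a proneural transcription factor, held 24.1, 23.8 and 25.7 CPM in eif5a1/2, 13.6, 14.4 and 14.1 CPM in dhps and 32.5, 27.6 and 33.4 CPM in control libraries. Both knockdowns were below control, dhps the further, and the difference between them was 0.80 ± 0.11 (adjusted p = 0.00645). fabp7a, a fatty acid binding protein of radial glia, and dbx1a, a homeobox gene of the neural tube, were at 1.11 ± 0.17 (adjusted p = 0.0117) and 0.59 ± 0.10 (adjusted p = 0.024). her4.2, a Notch target that belongs to a cluster of near-identical genes, was at 1.14 ± 0.20 (adjusted p = 0.024). It was the 1 of 36 tested Notch genes to pass (2.78% against 1.83% of all genes). Of 41 tested neuron genes 1 passed (2.44% against 1.83% of all genes). It was neurod4, a factor of early neuronal differentiation, at 0.52 ± 0.10 (adjusted p = 0.0382). The list median was -0.24. At an unadjusted p under 0.05, 12 neuron genes lay toward dhps and 4 toward eif5a1/2, against 6.21% and 8.38% of all genes. These 5 genes passed in 6 of 9, 5 of 9, 2 of 9, 4 of 9 and 2 of 9 fits without 1 library, in that order, with adjusted p of up to 0.0507, 0.0863, 0.151, 0.134 and 0.206.

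Matrix genes leaned the other way. Of 71 tested genes of collagens and extracellular matrix 5 passed (7.04% against 1.83% of all genes). Of these, 4 were higher in dhps and 1 was higher in eif5a1/2 embryos, at a list median of -0.29. That median was -0.07 in the libraries with a positive length slope. By library, the median log2 deviation of the list was 0.31, 0.02 and 0.01 in dhps libraries 1, 2 and 3. It was -0.22, 0.10 and -0.23 in eif5a1/2 libraries 1, 2 and 3, so eif5a1/2 library 2 lay above dhps libraries 2 and 3. mmp2, a matrix metalloproteinase, held 134, 104 and 113 CPM in dhps and 40.8, 50.3 and 45.1 CPM in eif5a1/2 libraries, at -1.36 ± 0.14 (adjusted p = 0.00161), and passed in all 9 fits without 1 library. vcana, a versican, loxl2a, a collagen crosslinking enzyme, and lamb2, a laminin chain, were at -0.89 ± 0.17, -0.71 ± 0.13 and -0.62 ± 0.13 (adjusted p = 0.0384, 0.0276 and 0.0459). col15a1b, a collagen chain, was higher in eif5a1/2 embryos at 1.06 ± 0.19 (adjusted p = 0.0257). The last 4 passed in 3 of 9, 2 of 9, 3 of 9 and 5 of 9 fits without 1 library, with adjusted p of up to 0.184, 0.125, 0.222 and 0.123.

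Among stress responses, 9.52% of the tested interferon list and 5% of the integrated stress response list passed. For the list of endoplasmic reticulum chaperones the share was 2.94%, and for all genes tested 1.83%. In the interferon list, rnf213b and isg20, an exonuclease, were the 2 of 21 tested genes that passed, isg20 at -1.25 ± 0.18 (adjusted p = 0.0105). Of 40 genes of the integrated stress response, atf3, a stress-induced transcription factor, and slc3a2b, an amino acid transporter chain, passed toward dhps at -0.91 ± 0.18 (adjusted p = 0.0438) and -0.80 ± 0.13 (adjusted p = 0.0154), with a list median of -0.01. In the list named for chaperones of the endoplasmic reticulum, with 34 tested genes, herpud1 passed toward eif5a1/2 at 0.60 ± 0.12 (adjusted p = 0.0465). isg20, slc3a2b, atf3 and herpud1 passed in 6 of 9, 5 of 9, 1 of 9 and 1 of 9 fits without 1 library, with adjusted p of up to 0.0765, 0.0839, 0.195 and 0.226.

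For several tissues no marker passed in this comparison, against 1.83% of all genes tested, a share at which short lists can hold none. The lists without a call were retina (20 tested), lens (36), heart (21), vascular endothelium (24), macrophages and neutrophils (21), liver and gut endoderm (20), pronephros (24), notochord and floor plate (29), epidermis and ionocytes (42), hatching gland (9), neural crest and pigment (28) and the hox genes (49). At an unadjusted p under 0.05 they held 4, 3, 8, 2, 4, 5, 6, 9, 6, 3, 6 and 6 genes, in that order, against 14.6% of all genes tested. Lists above that share included heart (8 of 21), hatching gland (3 of 9) and notochord and floor plate (9 of 29). Lists below it included lens (3 of 36) and vascular endothelium (2 of 24). DESeq2 called 811 of all 17031 genes tested, and limma-voom 294. In these lists DESeq2 called 4 genes of neural crest and pigment, 3 of notochord and floor plate, 2 of retina, 2 of epidermis and 1 each of lens, macrophages and neutrophils, liver and gut endoderm, pronephros and hatching gland, and limma-voom called 0 in all 12 lists.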

How the data were processed

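Polyadenylated RNA of whole zebrafish embryos was measured in 9 libraries, 3 per morpholino, processed against GRCz11 per the submitters' processing notes. The authors deposited expected counts per gene and library, per the file headers, which can split reads between similar transcripts. The deposited table also gives TPM, per the file headers, used here only for relative transcript length. Deposited tables of the authors' own comparisons hold, by their headers, log2 fold changes, p-values, q-values and, for 1 comparison, −log10 q-values. From them only counts of genes are quoted. The authors' deposited −log10 column was otherwise left aside. The aligner, counter, annotation and strand setting are not given in these sources.

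The expected counts were rounded, filtered with filterByExpr (17031 of 24614 genes kept, with at least 99.8% of the counts of each library) and scaled with TMM. edgeR 4.0.16 (R 4.3.3) fitted all 9 libraries in 3 groups with 6 residual degrees of freedom. Each adjusted p is from its quasi-likelihood test with Benjamini-Hochberg adjustment over all genes tested, at a threshold of 0.05, unless another tool is named. SEs come from the F statistic, and log2 differences are eif5a1/2 minus dhps. The scripts were tested on simulated data.

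The comparison, the 44 gene lists and the alternatives were chosen with earlier results of these data known. Patterns for 1 list (aminoacyl-tRNA synthetases) and the matching by NCBI symbols were widened after the files were read, by name only. Symbols were matched through an NCBI table (GRCz12tu), in which 22941 gene IDs were found. The genes named by rule were dhps, eif5a, eif5a2 and dohh, the 10 highest and 10 lowest fold changes among called genes with a given name, a mean CPM of at least 1 and groups that did not overlap, the 10 smallest adjusted p, and up to 4 members of each list with the smallest adjusted p. Of the genes in the text, further members of the p53 and plasma protein lists, lamb2, itm2ba and the genes under other observations were chosen after their values were seen. Alternatives were other scaling, filters, thresholds, a replicate block, the 6 libraries alone, DESeq2 1.42.0, limma-voom (limma 3.58.1), transcript length terms, 1 surrogate variable (sva 3.50.0) and each library left out. Same-numbered control and eif5a1/2 libraries had correlations of their deviations from group means over 0.1 in each pair. A blocked fit against control was therefore added after seeing the data. Libraries of unlike number also correlated, so these values do not establish a pairing by number, and the labels state none. No sequences or coordinates of GRCz11 were used. Some genes that were tested, and that the list counts include, are not reported here.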

Additional observations from a re-analysis of the deposited data

How the results depend on the processing

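The count of 311 genes was 302 with RLE scaling, 240 without a filter, 321 with a stricter filter, 311 with unrounded counts, 294 with limma-voom and 329 with length offsets. It fell to 138 with library totals alone, 170 with the 2 compared groups alone, 79 at an adjusted p under 0.01 and 158 with at least 2-fold. It rose to 811 with DESeq2, 1390 with the slope on transcript length as a covariate and 1805 with 1 surrogate variable, and each of these 3 sets held all 311 genes. In the libraries with a positive length slope it was 466, of which 179 were among the 311. Leaving out 1 library gave 73 to 864 genes. The count was 73, 101 and 73 without dhps library 1, 2 and 3, 149, 864 and 74 without eif5a1/2 library 1, 2 and 3, and 154, 346 and 193 without control library 1, 2 and 3. Without eif5a1/2 library 2 the set of 864 held 302 of the 311 genes. With the replicate number as a replicate block 188 genes passed, 181 of them among the 311. Same-numbered dhps and eif5a1/2 libraries had correlations of -0.40, -0.29 and 0.12 in their deviations from group means. Such deviations also carry the spread along the first component, so these values neither establish nor exclude a pairing by number. The labels state no pairing, and the blocked count is given here only. Same-numbered control and eif5a1/2 libraries had correlations of 0.40, 0.76 and 0.32. Control library 3 and eif5a1/2 library 1, of unlike number, had 0.597, so these values do not single out same-numbered pairs. For eif5a1/2 against control 26 genes passed, 14 with the block, and 351 with the block in these 6 libraries alone, both fits chosen after seeing the data. casp8, phlda3, rspo1 and ppox passed against control in both, and cd36 passed in the latter alone. The causes of these moves were not tested. Of the 178 genes that the rule names, no called gene changed direction under the 22 alternatives run on them. At most 39 lost their call under any 1 of them. The 178 include genes that were not called and had no call to lose, so 39 is not a share of 178. At least 75 were of this kind, since 75 gained a call with 1 surrogate variable. The biological coefficient of variation was 0.225, so with 3 libraries per group a difference that missed the threshold is not shown to be absent.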

Other observations

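The genes below were chosen after their values were seen, and belong to none of the lists above. Genes of secreted signals and their binding proteins differed in both directions. igf2a, an insulin-like growth factor, held 39.8, 40.5 and 46.4 CPM in dhps, 15.5, 12.4 and 16.1 CPM in eif5a1/2 and 22.9, 22.9 and 22.8 CPM in control libraries. The 3 groups did not overlap, with control between, and the difference was -1.53 ± 0.12 (adjusted p = 0.000305). Its paralog igf2b held 31.1, 26.7 and 31.4 CPM in dhps and 16.6, 11.02 and 15.07 CPM in eif5a1/2 libraries, at -1.07 ± 0.18 (adjusted p = 0.0183). igfbp7, which encodes an insulin-like growth factor binding protein, was at -1.47 ± 0.10 (adjusted p = 0.00015), and fsta, a follistatin that binds activin, at -1.87 ± 0.15 (adjusted p = 0.000251). igf2a, igfbp7 and fsta passed in all 9 fits without 1 library and igf2b in 5 of 9, with an adjusted p of up to 0.108. fosab, an immediate early transcription factor of the Fos family, held 14.8, 14.2 and 14.3 CPM in dhps and 3.71, 2.44 and 3.08 CPM in eif5a1/2 libraries, at -2.25 ± 0.18 (adjusted p = 0.000251). Toward eif5a1/2, lft2, a lefty inhibitor of Nodal signalling, was at 2.18 ± 0.35 (adjusted p = 0.0169) and the Wnt ligand gene wnt16 at 1.199 ± 0.19 (adjusted p = 0.0154). These passed in 6 of 9 and 5 of 9 fits without 1 library, with adjusted p of up to 0.0927 and 0.0929.

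The genes c9, c3a.1 and c3a.6 of complement, which like many plasma proteins is made in the liver, were higher in eif5a1/2 embryos. c9, of the membrane attack complex, held 139, 123.2 and 145 CPM in eif5a1/2 and 63.2, 75.1 and 84.2 CPM in dhps libraries, at 0.87 ± 0.17 (adjusted p = 0.0401). c3a.1 and c3a.6, copies of complement C3 that may share reads, were at 0.75 ± 0.14 (adjusted p = 0.0374) and 1.11 ± 0.18 (adjusted p = 0.0183). These calls passed in 3 of 9, 3 of 9 and 4 of 9 fits without 1 library, with adjusted p of up to 0.189, 0.206 and 0.118.

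med8 and med11, genes for subunits of the Mediator complex, a coactivator of RNA polymerase II, were lower in dhps than in eif5a1/2 embryos. The complex was not tested as a list, so these genes do not describe it as a whole. med13a, a further Mediator gene, did not pass, at -0.09 ± 0.17 (adjusted p = 0.841). med8 held 8.24, 8.70 and 9.42 CPM in dhps, 38.2, 17.8 and 27.9 CPM in eif5a1/2 and 33.3, 21.4 and 45.7 CPM in control libraries, at 1.66 ± 0.32 (adjusted p = 0.0355). med11 held 8.73, 11.7 and 7.96 CPM in dhps and 30.8, 19.5 and 26.9 CPM in eif5a1/2 libraries, at 1.44 ± 0.20 (adjusted p = 0.00954). For both, eif5a1/2 library 2 was the lowest of its group. They passed in 3 of 9 and 6 of 9 fits without 1 library, with adjusted p of up to 0.173 and 0.0661.

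pcdh1a3, a clustered protocadherin, was listed at 0 in eif5a1/2 libraries 1, 2 and 3, against 1.19, 3.04 and 0.995 CPM in dhps and 3.43, 5.77 and 2.64 CPM in control libraries (adjusted p = 0.0183 against dhps). Reads can be shared within this cluster, and the call did not pass without dhps library 1 or eif5a1/2 library 3, with an adjusted p of up to 0.0765.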
